A study of Mus musculus with 2 samples.

Results

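The MHC class II genes and the invariant chain gene Cd74 were followed as a set of 7 of the 32285 genes measured: Cd74, H2-Aa, H2-Ab1, H2-Eb1, H2-DMa, H2-DMb1 and Ciita. They were picked by symbol, after Cd74 had been seen to differ between the conditions, so the differences below are described without a test. Cells came from the femurs and vertebrae of female BALB/c mice that had been ovariectomized (OVX) or sham operated at 10 weeks of age, 4 weeks before collection, in pools of 20 mice per condition. The bones were washed of marrow and digested, and cells bearing CD11b together with F4/80 or CD68 were sorted as osteal macrophages. OVX cells carried hashtag 1 and sham cells hashtag 2, and both were run in 1 droplet library of 3′ transcript ends. The library held 2349 cells and 17681092 gene UMIs (unique molecular identifiers, each counted as 1 captured transcript), with 1059 cells assigned to OVX, 981 to sham, 78 to both hashtags and 231 to neither. Each condition was 1 pool, so intervals below are 95% intervals of counting error only and say nothing of the spread between mice.

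MHC class II molecules are heterodimers at the cell surface that show peptides from ingested proteins to CD4 T cells. Dendritic cells, B cells and some macrophages carry them at high levels, and neutrophils normally carry little. The invariant chain encoded by Cd74 escorts the new heterodimer to the endosome and blocks its groove, H2-Aa and H2-Ab1 encode the A alpha and A beta chains, H2-Eb1 encodes the E beta chain, the H2-DM heterodimer of H2-DMa and H2-DMb1 exchanges the invariant chain remnant for peptide, and Ciita is the transactivator that switches these genes on. By the GENCODE M21 annotation of GRCm38, the H2 genes lie together on chromosome 17, with H2-DMa from 34119541 to 34139101, H2-DMb1 from 34153072 to 34160230, H2-Ab1 from 34257689 to 34269419, H2-Aa from 34282744 to 34287823 (minus strand) and H2-Eb1 from 34305867 to 34316674. Ciita lies on chromosome 16 from 10480059 to 10528418.

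Ciita does not bind DNA itself and is recruited to promoters by factors that include NF-Y, which binds the CCAAT core of the Y box. RefSeq promoter windows (GRCm38.p6) around the transcription start were at hand for 4 of the 7 genes, H2-Aa, H2-Eb1, H2-DMa and H2-DMb1. The 150 bases before the start are given for these 4. Most UMIs of H2-Aa, H2-Eb1 and H2-DMb1 lay in the same few cells and most of those of H2-DMa did not. A link between this and the windows was not tested. Capitals mark CCAAT or its complement ATTGG and the longest run that any pair of the windows shared.
H2-Aa, chr17:34287824-34287973, minus strand: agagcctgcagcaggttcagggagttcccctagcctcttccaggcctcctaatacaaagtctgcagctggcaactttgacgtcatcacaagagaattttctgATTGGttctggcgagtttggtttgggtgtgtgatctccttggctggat
H2-Eb1, chr17:34305717-34305866, plus strand: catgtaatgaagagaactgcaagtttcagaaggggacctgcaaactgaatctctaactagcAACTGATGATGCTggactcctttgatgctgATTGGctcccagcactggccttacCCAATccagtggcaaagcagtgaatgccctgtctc
H2-DMb1, chr17:34153041-34153190, plus strand: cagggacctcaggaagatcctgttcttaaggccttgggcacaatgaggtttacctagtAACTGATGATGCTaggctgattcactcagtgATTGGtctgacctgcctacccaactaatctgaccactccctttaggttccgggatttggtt
H2-DMa, first of its windows, chr17:34122682-34122831, plus strand: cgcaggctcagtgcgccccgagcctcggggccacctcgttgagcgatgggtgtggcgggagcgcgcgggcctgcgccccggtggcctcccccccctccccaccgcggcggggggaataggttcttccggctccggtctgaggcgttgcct
The CCAAT core, searched on both strands, ended 43 bases before the start of H2-Aa, 54 and 30 bases before that of H2-Eb1 and 56 bases before that of H2-DMb1. It was not found in the first window of H2-DMa and lay 193 bases before the start in its second window. Of all 32851 windows, 12289 (37.4%) held it. H2-Eb1 and H2-DMb1 shared the 13-base run AACTGATGATGCT, which was found in 3 of all the windows, the other being that of Slc39a10. These matches describe letters in the windows and not bound sites. The RefSeq starts of H2-DMb1 and, by more, of H2-DMa in both its windows lie downstream of the GENCODE starts, so their printed bases lie in or overlap the GENCODE genes. No window was used for H2-Ab1, Cd74 and Ciita.

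The 7 genes were concentrated in very few cells. Together they gave 2965 UMIs, or 168 per 1000000 gene UMIs (CPM), and 223 of the 2349 cells (9.49%, 8.34 to 10.8) held at least 1 of them. The cell with most held 1122 UMIs, 37.8% of the total, the top 3 cells held 70.2% and the top 5 held 78.8%. At least 2 UMIs were found in 57 cells, at least 10 in 13 cells and at least 50 in 9 cells, and no cell lay between 13 and 52 UMIs.

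Cells with at least 10 UMIs summed over the genes and at least 3 of the genes detected are called MHC class II-high here. There were 11, which held 2627 UMIs (88.6% of the total) at a depth of 1008 to 84224 UMIs per cell. They are numbered 1 to 11 by their summed UMIs, which were 1122, 515, 444, 132, 124, 82, 76, 55, 52, 13 and 12. Cells 1 to 6, 8 and 10 were OVX, cells 7 and 11 were sham, and cell 9 was assigned to neither condition. The name stands for the rule only. Cell 11 had 0 UMIs of H2-Aa, H2-Ab1 and H2-Eb1, and its 12 UMIs were 0.0142% of all its UMIs. The hashtags of the 10 assigned cells were not close calls: hashtag 1 stood at 983 to 15441 UMIs in the 8 OVX cells against 179 to 454 for hashtag 2, and hashtag 2 at 3292 and 9970 in the sham cells against 25 and 56 for hashtag 1.

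**Figure D1:**
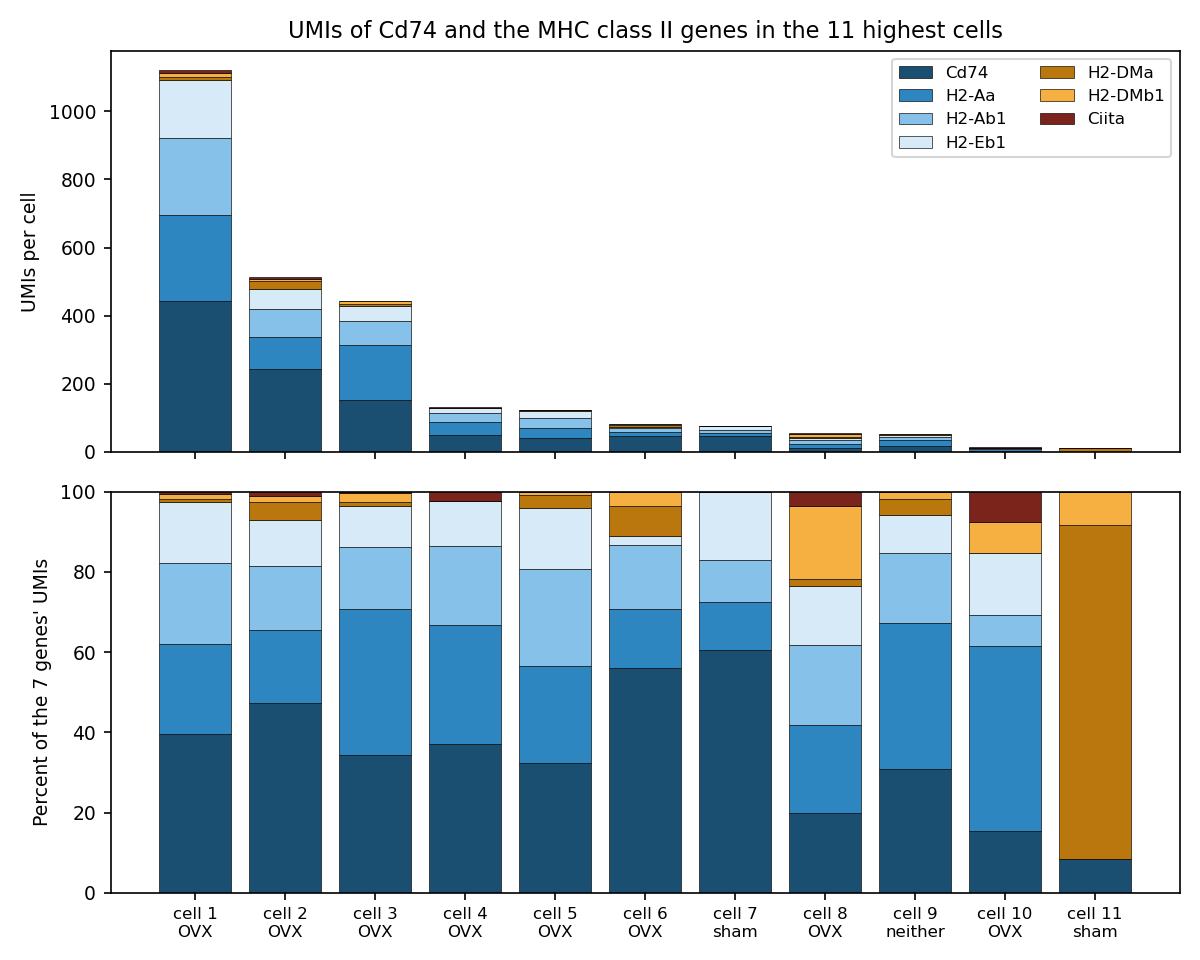
UMIs of the 7 genes in each of the 11 MHC class II-high cells, stacked by gene (top, UMIs per cell; bottom, percent of the genes' UMIs in that cell), with the condition of each cell under the bars. Cells 1 to 3 held 1122, 515 and 444 UMIs, and cell 11 differed from the others in that 10 of its 12 UMIs were of H2-DMa.

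Just outside the rule were a sham cell with 13 UMIs and another with 12, all of Cd74, followed by a sham cell with 9 UMIs of 3 genes and a sham cell with 8 UMIs of 4 genes. Just inside it were OVX cell 10 with 13 UMIs of 6 genes and sham cell 11 with 12 UMIs of 3 genes. Of the 14 cells outside the rule with at least 5 UMIs, 13 were sham and 1 was assigned to neither.

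Cd74, the invariant chain, was the most abundant of the 7 genes, with 1197 UMIs in 109 cells. In cells 1 to 11 it had 444, 244, 153, 49, 40, 46, 46, 11, 16, 2 and 1 UMIs, so that 87.9% of its UMIs lay in these cells. The remaining 145 UMIs were spread over 98 other cells, 85 of which had 1 UMI and the highest of which had 13. Cd74 was thus the gene with most scattered single UMIs, beside its high cells.

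The classical chains were found together in the high cells. These cells were picked by asking for at least 3 of the 7 genes, so this is set in part by the choice and is a description. H2-Aa had 251, 93, 161, 39, 30, 12, 9, 12, 19, 6 and 0 UMIs in cells 1 to 11, and 96.6% of its 654 UMIs lay there. H2-Ab1 had 226, 82, 69, 26, 30, 13, 8, 11, 9, 1 and 0, with 90.5% of 525. H2-Eb1 had 172, 59, 45, 15, 19, 2, 13, 8, 5, 2 and 0, with 95.5% of 356. All 3 chains had a UMI in cells 1 to 10, though H2-Ab1 had only 1 in cell 10, and none of them had a UMI in cell 11. In cells 1 to 9, the proportions among the genes varied: Cd74 made up 20% to 60.5% of the summed UMIs, H2-Aa 11.8% to 36.5%, H2-Ab1 10.5% to 24.2% and H2-Eb1 2.44% to 17.1%. Outside the high cells H2-Aa and H2-Eb1 fell to 22 and 16 UMIs, with no more than 3 and 2 in any cell, whereas H2-Ab1 had 50 UMIs in 36 cells with up to 7 in a cell.

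The peptide exchange genes did not share 1 pattern. H2-DMb1 had 55 UMIs, of which 48 (87.3%) lay in the high cells, as 14, 7, 10, 0, 1, 3, 0, 10, 1, 1 and 1 in cells 1 to 11. Its paralog H2-DMb2 had 15 UMIs in 6 of the high cells and 16 in all others, and reads shared by the pair could not be separated here. H2-DMa had 155 UMIs, of which only 59 (38.1%) lay in the high cells, as 7, 24, 5, 0, 4, 6, 0, 1, 2, 0 and 10. The other 96 were spread over 61 cells, of which 6 held a UMI of H2-Aa, H2-Ab1 or H2-Eb1 and 5 a UMI of Cd74. The transactivator gene Ciita had 23 UMIs in 8 cells, and 21 of them were in 6 high cells: 8 in cell 1, 6 in cell 2, 1 in cell 3, 3 in cell 4, 2 in cell 8 and 1 in cell 10. All of these 6 cells were OVX.

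Between the conditions, the OVX cells had a summed level of 333.8 CPM (321 to 347) and the sham cells 41.6 (36.8 to 46.9), a ratio of 8.02 (7.07 to 9.12). Cd74 stood at 133 and 20.1 CPM (ratio 6.62, 5.51 to 8.01), H2-Aa at 78.7 and 3.25 CPM (24.2, 15.7 to 39.4), H2-Ab1 at 60.3 and 4.64 CPM (12.98, 8.97 to 19.5) and H2-Eb1 at 42.4 and 2.94 CPM (14.4, 9.10 to 24.3). H2-DMb1 was at 6.41 and 0.619 CPM, from 50 and 4 UMIs (10.4, 3.80 to 39.5). All 23 UMIs of Ciita in assigned cells were OVX and 0 were sham. Set against the 3 counts that a count of 0 allows over the sham cells, the OVX level of Ciita was 6.35-fold. That value leaves out the counting error of the 23 UMIs, and the counting interval of the ratio began at 4.76. Of the 23 UMIs, 21 lay in high cells, and without these cells 2 OVX and 0 sham UMIs remained. H2-DMa was at 9.75 and 10.1 CPM (0.969, 0.687 to 1.37), but at a ratio of 1.63 with each cell given equal weight. Of the 7, 5 reached 10 CPM in OVX or sham and 4 of these were at least 2-fold higher in OVX, as were 125 of all 7170 genes at that level (1.74%). At 100 CPM, which Cd74 alone of the 7 reached, the share of all genes was 1.92%. That contrast was in view when the genes were chosen, so nothing is read from the share.

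The OVX excess lay in a handful of cells. The 8 high OVX cells gave 2487 of the 2603 OVX UMIs (95.5%), and the 2 high sham cells gave 88 of 269 sham UMIs (32.7%). Without cell 1 alone the summed ratio was 4.57, and without cells 1 to 5, all of them OVX, it was 0.829. Without the 11 high cells the summed level was 15.1 CPM for OVX and 28.4 CPM for sham, a ratio of 0.531 (0.417 to 0.675). That rule left in 13 sham cells with 5 to 13 UMIs, which held 92 of the 181 sham UMIs then left, and 0 such OVX cells. When all cells with at least 5 UMIs were left out, a choice made after seeing this, 116 OVX and 89 sham UMIs remained and the ratio was 1.05 (0.786 to 1.39). The cells left out were picked on the UMIs compared, so neither ratio is read as a direction in the other cells. The same holds for the ratios by gene. Without the 11 high cells, the interval lay below 1 for Cd74 (0.4995, 0.344 to 0.718), H2-Ab1 (0.452, 0.204 to 0.954) and H2-DMa (0.437, 0.269 to 0.698). It held 1 for the others. Without the cells of at least 5 UMIs, the ratio was 1.22 for Cd74 (0.768 to 1.95), 1.15 for H2-Aa (0.394 to 3.55), 0.642 for H2-Ab1 (0.274 to 1.47), 1.80 for H2-Eb1 (0.504 to 8.02), 0.802 for H2-DMa (0.463 to 1.39) and 3.21 for H2-DMb1 (0.317 to 158), the last from 4 UMIs and 1. With each cell given equal weight the summed ratio in all cells was 2.95.

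**Figure D2:**
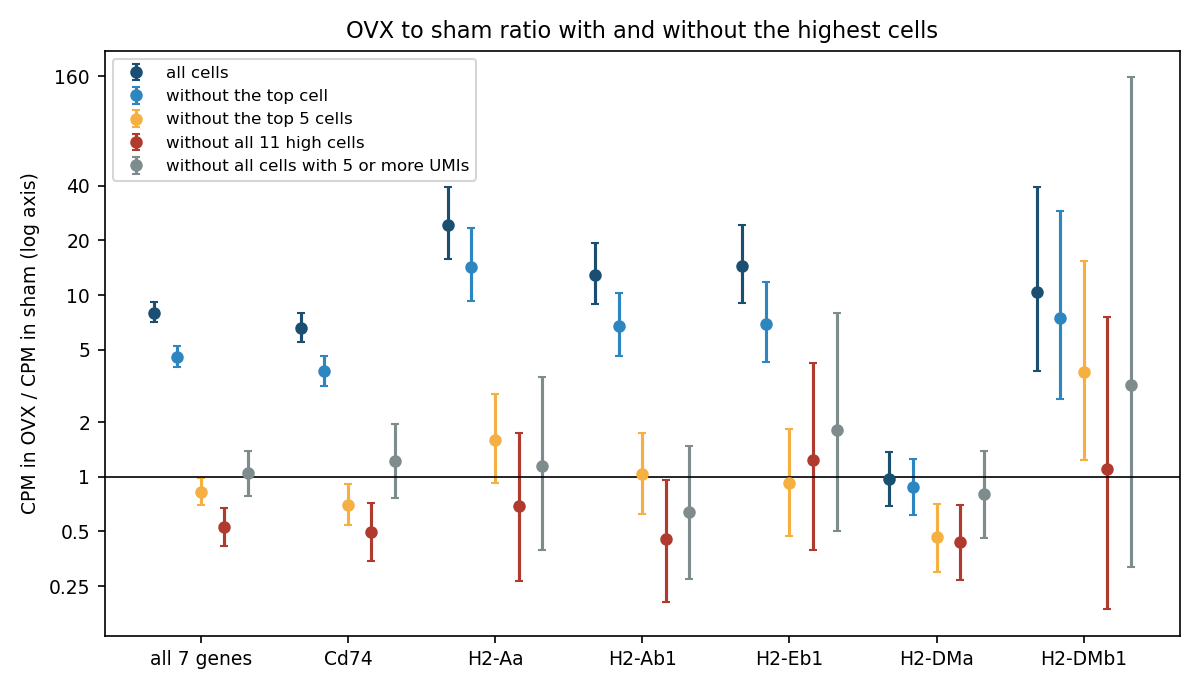
OVX to sham ratio of the CPM values (log axis) for the 7 genes summed and for 6 of them, over all cells and without the top cell, the top 5 cells, all 11 high cells or all cells with at least 5 UMIs; bars are 95% counting intervals and Ciita, with 0 UMIs in sham, is not drawn. The summed ratio moved from 8.02 to 4.57, 0.829, 0.531 and 1.05 as these cells were left out, and that of H2-DMa was 0.969 over all cells.

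The share of high cells was 8 of 1059 in OVX (0.755%, 0.327 to 1.48, exact Clopper-Pearson) and 2 of 981 in sham (0.204%, 0.0247 to 0.735). These intervals overlapped. With a threshold of 5 UMIs in place of 10, the counts were 8 OVX and 6 sham cells (0.612%), and with 20 UMIs they were 7 and 1. When at least 3 of Cd74, H2-Aa, H2-Ab1 and H2-Eb1 were asked for, a choice made after seeing the data, they were 8 and 1. At least 100 UMIs were reached by 5 cells, all OVX. The share of cells with any UMI of the genes was 10.01% in OVX (8.27 to 11.98) and 8.87% in sham (7.16 to 10.8), at median depths of 4812 and 3704 UMIs per cell. After each cell was thinned to 1000 UMIs, which left out 48 OVX and 85 sham cells that were shallower, a UMI was held by 23 of 1011 cells in OVX (2.28%, 1.45 to 3.39) and by 26 of 896 in sham (2.90%, 1.90 to 4.22). No difference in the share of positive cells was detectable at this depth.

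As a background, the cluster led by Gng11, Saa2 and Prrx1 was used, whose 210 cells had Dcn (decorin, of fibroblasts and stromal cells) at 16513 CPM and Ptprc (the leukocyte antigen CD45) at 5.85 CPM. Of these cells 43 (20.5%, 15.2 to 26.6) held a UMI of the genes at a median of 19997 UMIs per cell, and 2 of 198 (1.01%, 0.123 to 3.60) after thinning. The thinned shares in OVX and sham overlapped this interval, and single UMIs were not read as expression. The 59 UMIs of this cluster were mostly of H2-Ab1 (26) and H2-DMa (22), and only 5 were of Cd74.

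Outside the high cells, H2-DMa was highest in the cluster led by Ppbp, Ms4a8a and Pf4, which also held most of Arg1 (arginase, at 6614 CPM). There it stood at 42.8 CPM in 60 cells, above Cd74 at 22.3 and H2-Aa at 7.44 CPM. These levels rest on only 23, 12 and 4 UMIs, and a sham cell held 5 of the 23 and another sham cell 4. In the cluster led by Hist1h1b, Top2a and Mki67, H2-DMa stood at 10.5 CPM, from 35 UMIs. In the other 4 clusters it was between 1.02 and 4.02 CPM. Of the 60 cells of the first of these clusters, 41 were sham and 14 OVX.

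**Figure D3:**
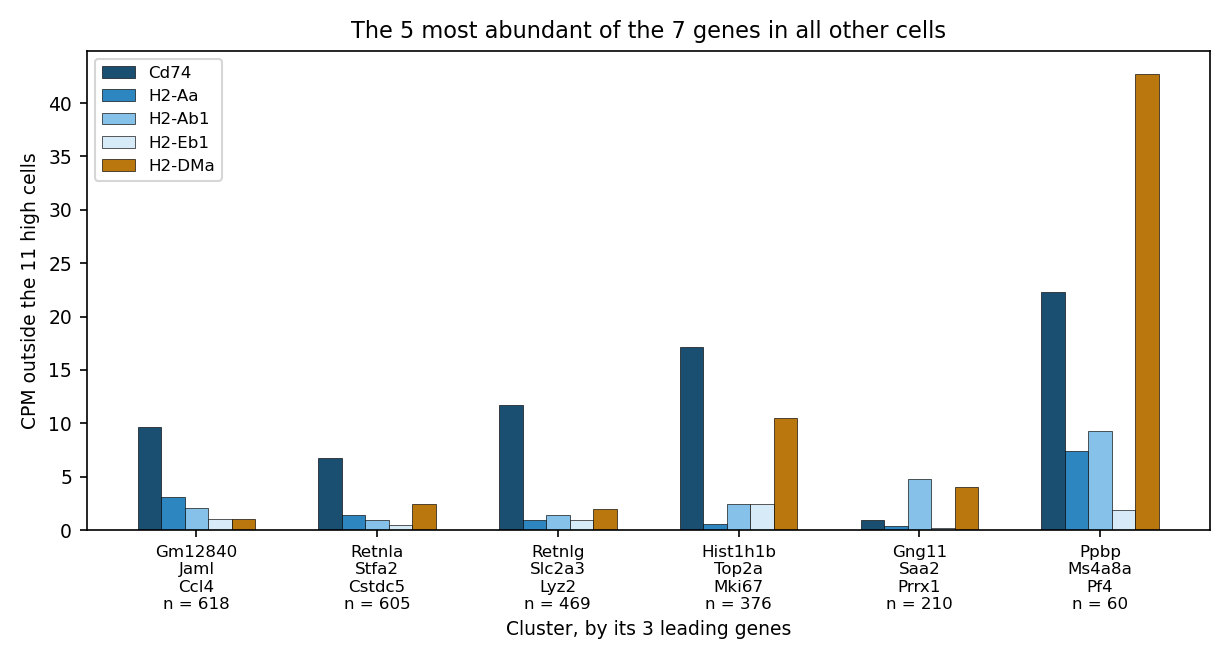
CPM of the 5 most abundant of the 7 genes in each of the 6 clusters after the 11 high cells were left out; clusters are named by their 3 leading genes and n is the number of cells. H2-DMa reached 42.8 CPM, from 23 UMIs, in the Ppbp, Ms4a8a and Pf4 cluster, where Cd74 was at 22.3 CPM, and was at 1.02 to 10.5 CPM elsewhere.

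With the high cells included, the cluster led by Hist1h1b, Top2a and Mki67, genes of dividing cells, held 8 of the 11 high cells and 72.9% of the summed UMIs. The Ppbp, Ms4a8a and Pf4 cluster held cells 3 and 5 and 20.7%, and the cluster led by Retnla, Stfa2 and Cstdc5 held cell 10. Most of the high cells lacked the leading genes of the first cluster: at least 3 of the 6 cycling markers were found only in cell 11 and none in 8 of the 11 cells. Over the whole library, 55 of the 2349 cells had 3 of them.

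The other genes of the high cells were compared with all other cells. The cells had been chosen on the 7 genes and the comparison is a description. UMIs were pooled, so deep cells weighed most: cell 11 held 84224 UMIs, against 24337 at most in any other high cell. At least 2-fold higher CPM was seen for 2420 of 8173 genes (29.6%), with a median fold of 1.31. The share of all genes at least 2-fold lower was not counted, so nothing is read from a count of lower genes. All 7 of the chosen genes were among the genes at least 2-fold higher, and nothing is read from that because the cells had been picked on the UMIs of these 7. In the list of other genes of the MHC class II pathway, 25 of 28 names were in the files, 20 reached 10 CPM, 12 were at least 2-fold higher in the high cells and 0 were at least 2-fold lower, with a median fold of 3.42. Ctss (cathepsin S, which trims the invariant chain) was 15.1-fold higher and was found in 9 of the 11 cells, with 40 UMIs in cell 5 and 32 in cell 3. Ifi30 (a thiol reductase of the endosome) was 13.9-fold higher and was found in 9 cells. Cd86, a costimulatory ligand of T cells, was 18.6-fold higher, with 10 of its 23 UMIs in cell 1, and Cd80, the related ligand, 4.44-fold higher. Irf8, a transcription factor of dendritic cells and macrophages, was 14.3-fold higher. The factors that bind the promoters did not stand apart: Rfx5, Rfxap and Rfxank had 1, 4 and 2 UMIs in the high cells, and Nfya, Nfyb and Nfyc were 1.63-, 1.27- and 1.33-fold those in the other cells. H2-Oa had 0 UMIs in all cells and H2-Eb2 had 0 in the high cells and 1 elsewhere. Of the class I genes, chosen after their values were seen, B2m was 3.50-fold, H2-K1 2.35-fold and H2-D1 0.914-fold those in the other cells.

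Of the same pathway list, 17 genes reached 10 CPM in OVX or sham. March1, a ubiquitin ligase that removes class II molecules from the surface, had 28.5 CPM in the OVX cells against 9.90 CPM in the sham cells (ratio 2.87, 2.17 to 3.86). Cd80 was at 16.7 and 33.9 CPM (0.492, 0.393 to 0.614). None of the others reached a 2-fold difference, Ctss standing at 65.3 and 63.3 CPM (1.03, 0.904 to 1.18) and Ifi30 at 28.6 and 41.01 CPM (0.697, 0.581 to 0.836).

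Among 1565 genes at 100 CPM or more in the high cells and with a UMI in at least 30% of them, the largest folds outside the 7 genes were for Gpr183 (a receptor for oxysterols), Acp5, Cdh1 (E-cadherin), Gpr171, Cxcl16, Ccl17, Ccr2 (a chemokine receptor of monocytes), Il7r (the interleukin-7 receptor), Runx3 (a transcription factor) and Nrg1 (neuregulin), at 263-fold down to 21.9-fold. The 10 genes whose log level was most like that of the summed genes over all 2349 cells were Cxcl16 (Pearson's r = 0.482), Acp5 (0.442), Il7r (0.420), Crip1 (0.395), Ccl17 (0.394), Cbfa2t3 (0.371), Ccl22 (0.368), Ifi30 (0.360), Gpr183 (0.347) and Rftn1 (0.345), out of 12942 genes. These values are given as a description, since all cells share 1 library and the few high cells carry most of the relation. Of the 66 Ccr2 UMIs in the high cells, 36 were in cell 11. Cxcl16, a chemokine for CXCR6-bearing T cells, had 41, 14, 10, 6, 5, 0, 21, 1, 3, 0 and 0 UMIs in cells 1 to 11. Acp5, the tartrate-resistant acid phosphatase used as an osteoclast marker, had 2, 0, 12, 20, 9, 0, 1, 0, 1, 0 and 0, or 45 of its 64 UMIs. Of the 5 osteoclast markers, no high cell had 3, but neither did any cell of the library, so nothing is read from that. Dcstamp had 6 UMIs in the high cells and 5 in all others, and Ocstamp had 3 and 1. Ctsk went the other way, with 0 and 456, and Calcr had 0 in all cells. Acp5 thus had 53 OVX UMIs and 9 sham UMIs (ratio 4.88, 2.39 to 11.3), with 43 of the OVX UMIs in the high cells. Without the high cells it had 10 OVX and 8 sham UMIs. The other genes of these rankings did not all share its direction. Cdh1 (ratio 1.95) and Nrg1 (1.69) were also higher in OVX, with intervals above 1. Of the 47 OVX UMIs of Cdh1, high cells 2, 6 and 8 held 17, 7 and 7. Ccl22 (0.345), Ccl17 (0.385), Rftn1 (0.483), Ccr2 (0.560), Il7r (0.626), Crip1 (0.630) and Ifi30 (0.697) were lower, with intervals below 1. Of the 190 sham UMIs of Ccl22, 62 were in cell 7 and 125 in 1 sham cell outside the rule. That ratio thus rested on very few sham cells, and the others were not split in this way. The intervals of Gpr183, Gpr171, Cxcl16, Runx3 and Cbfa2t3 held 1.

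The 11 cells were not 1 kind of cell by their other genes. Cells 1, 4 and 7 had at least 3 of the 10 conventional dendritic cell markers. Ccr7, the receptor that guides dendritic cells to lymph nodes, had 39 UMIs in cell 4 and 22 in cell 7, and Ccl22, a chemokine of mature dendritic cells, had 48 and 62 there and 8 in cell 1. Ccl17, which acts on the same receptor as Ccl22, had 43 UMIs in cell 1 and 26 in cell 7. Xcr1, Clec9a and Cd209a of the dendritic cell list were at 0 in all 11 cells, but had only 2, 0 and 0 UMIs in all other cells. Batf3 and Fscn1 of that list were found only in cell 4, with 2 UMIs each. Cells 2, 3, 5 and 11 had at least 3 of the 11 macrophage markers. Csf1r, the receptor for macrophage colony-stimulating factor, had 4, 8, 2 and 3 UMIs in them, Cd68 had 1, 13, 8 and 10, and Adgre1, which encodes the sorted antigen F4/80, had 7, 1, 0 and 15. Csf1r and Cd68 did not set these cells apart. In cells 1 and 6, Csf1r had 5 and 4 UMIs and Cd68 had 2 and 3. C1qa, C1qb, C1qc, Siglec1 and Vcam1 of the same list were at 0 in all 11 cells. In all other cells together they had 1, 1, 0, 4 and 129 UMIs, so all but Vcam1 were nearly absent from the library. Cells 2, 5 and 11 also had 3, 3 and 5 of the 7 monocyte markers, and cell 11 had all 11 neutrophil, 5 of 6 cycling and 3 of 6 stromal markers. The first group held an OVX cell with 1122 UMIs of the 7 genes, an OVX cell with 132 and a sham cell with 76, and the second held 3 OVX cells with 515, 444 and 124 and a sham cell with 12.

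Some other genes cut across these groups, without a clean division. Cdh1 was found in cells 2, 6, 8 and 11, with 17, 7, 7 and 7 UMIs. Mmp12, a macrophage elastase, had 54 UMIs in cell 2, 37 in cell 6, 3 in cell 11 and 1 in cell 3. Arg1 had 37 UMIs in cell 3, 15 in cell 5 and 5 in cell 11. Mmp12 and Arg1 were singled out after their values were seen. Cells 6, 8, 9 and 10 had fewer than 3 markers of the dendritic cell and macrophage lists at 16932, 6425, 1008 and 3071 UMIs, and in cells 8 and 10 the gene Gm42418, which overlaps ribosomal RNA, made up 42.7% and 29.2% of all UMIs. Cell 10 had 10 of the 11 neutrophil markers, at 90 UMIs, and cell 1 also had 10 of them, at 59 UMIs. Nearly all cells of the library held some of these markers, with at least 3 in 2296 of 2349.

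**Figure D4:**
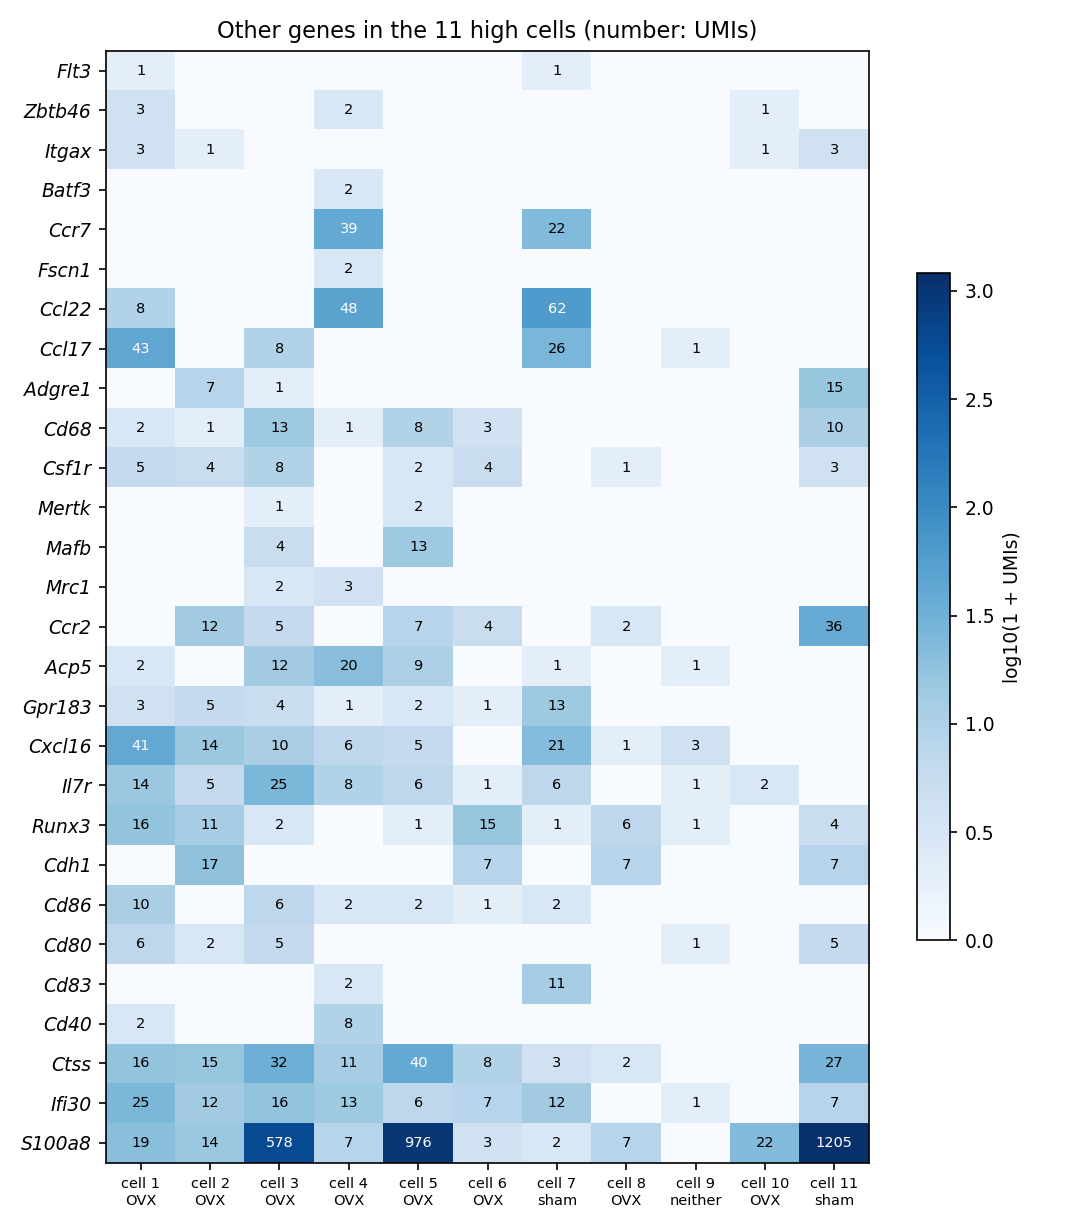
UMIs of 28 other genes in each of the 11 MHC class II-high cells; the number is the UMI count, empty fields are 0 and the colour is log10(1 + UMIs). Ccr7 and Ccl22 were high in cells 4 and 7, Cdh1 was found in cells 2, 6, 8 and 11, and S100a8 reached 578, 976 and 1205 UMIs in cells 3, 5 and 11.

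Markers of other cells were counted beside these. The 11 neutrophil markers summed to 30751 CPM in the high cells and 187475 CPM in the other cells. They made up a median of 0.276% of a cell's UMIs in the high cells against 20.1% in the other cells. That share ranged from 0.0992% to 9.70% over the 11 cells. At least 3 of these markers were found in 10 of the 11 cells, but also in 2296 of all 2349 cells, so nothing is read from that count. Cells 11, 5 and 3 had 3152, 1913 and 1256 UMIs of the markers, more than the other high cells. S100a8, a calcium-binding protein abundant in neutrophils, had 578, 976 and 1205 UMIs in cells 3, 5 and 11 and 0 to 22 in the remaining 8. Over the whole library it stood between 80529 and 119975 CPM in 4 of the 6 clusters, where Adgre1 was at 1.46 to 12.3 CPM, Csf1r at 5.85 to 13.8 CPM and Cd68 at 43.3 to 79.2 CPM, so neutrophil transcripts were far above the macrophage markers in cells labelled macrophage. Of the 11 B cell markers, 1 was found in the high cells, Ighm with 7 UMIs in cell 2, and the early B cell, eosinophil and erythroid markers were at 0. In the other cells the early B cell, eosinophil and erythroid lists also summed to only 1.32, 2.35 and 0.344 CPM. The plasma cell, plasmacytoid dendritic cell, basophil or mast cell, T or NK cell, megakaryocyte and endothelial lists reached 3 markers in none. Over the whole library, 3 markers were reached by 5 cells for the plasmacytoid dendritic cell list and by 5 for the endothelial list. They were reached by 0 cells for the others, so nothing is read from their lack in the high cells. Scrublet marked none of the 11 cells as a doublet, but it marked only 1 of the 2349 cells, which is too few for the caller to have worked, and the part of doublets in cells 3, 5 and 11 was not tested.

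Cells were also picked by the marker lists alone, without use of the 7 genes. At least 3 conventional dendritic cell markers were found in 7 cells, of which 5 were OVX (0.472%, 0.153 to 1.10) and 2 sham (0.204%, 0.0247 to 0.735). The summed UMIs of the 7 genes were 1122, 132, 3, 1 and 0 in the OVX cells and 76 and 12 in the sham cells. The OVX cell with 0 passed on only 3 UMIs of the dendritic cell markers. The OVX cell with 3 also had 10 neutrophil markers, at 2776 UMIs. These few cells are not replicates of a condition, and neither a difference nor a likeness of the conditions is read from them. The sham cell with 12 UMIs, all of Cd74, had 125 UMIs of Ccl22, 27 of Fscn1 and 21 of Ccr7, and an OVX cell with 11 UMIs of Ccr7 and 8 of Fscn1 had 1 UMI of the 7 genes. At least 3 macrophage markers were found in 45 cells, 17 OVX (1.61%, 0.938 to 2.56) and 23 sham (2.34%, 1.49 to 3.50). Of the 45, 22 held a UMI of the 7 genes, and the median was 0. The median depth of the 45 was 15600 UMIs per cell, against 4387 over all cells. The 45 cells summed to 1138 UMIs of the 7 genes, of which 1044 were of Cd74, H2-Aa, H2-Ab1 and H2-Eb1. H2-DMa gave 67 UMIs in 16 of the cells. The 45 included high cells 2, 3, 5 and 11, which held 24, 5, 4 and 10 of these H2-DMa UMIs. Of the 1138 UMIs they held 515, 444, 124 and 12, so most of the sum lay in high cells. At least 3 B cell markers were found in 1 cell, a sham cell with 136 UMIs of 7 of these markers and 9 UMIs of the 7 genes.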

How the data were processed

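Single-cell RNA-seq of sorted bone cells was deposited by the authors as 1 matrix of UMI counts, whole numbers that were not normalized, for genes and 2 hashtags. Cell Ranger (6.0.1 per the labels, 6.0.0 in the file header) and mm10 were used upstream, and the submitters' processing notes also name featureCounts 1.5.0-p3. That reference is of C57BL/6 mice, whereas these were BALB/c with other H2 alleles, and its effect on the counts was not tested. H2-Ea was not analysed here.

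The 7 genes and all lists were chosen with earlier results of these data known. HTODemux of Seurat 5.3.0 (in R 4.3.3) called the hashtags at a positive quantile of 0.99. Cells assigned to both or neither were left out of comparisons of OVX with sham but kept in the high cells and their comparison with all other cells, the likeness ranking and the clusters (118 of the 210 background cells). No cell was filtered otherwise. The depth per cell was 500 to 141565 UMIs, and OVX and sham cells summed to 7798694 and 6462258 UMIs. UMIs were summed per condition and divided by all gene UMIs (CPM). 3′ counts of this kind do not scale with transcript length. Exact Poisson, conditional binomial and Clopper-Pearson intervals at 95% were used. They cover counting error only, and UMIs of 1 cell are not independent cells. With 1 pool per condition no test was made. A count of 0 was taken to allow 3 counts. Cells were clustered by Louvain (scanpy 1.11.5, 2000 variable genes, 30 components, 15 neighbors, resolution 0.3, 6 clusters), and Leiden and 1000 variable genes were alternatives. Scrublet was run for doublets. The interval and likeness code was tested on simulated data.

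Genes named were the 7, the pathway list, the 10 with the largest fold in high cells (at least 100 CPM there, in at least 30% of them), the 10 most like the summed genes (in at least 10 cells), markers of 17 cell type lists and the 3 leading genes of each cluster. Alternatives were another hashtag rule, equal weight per cell, left-out cells, a quality filter, other thresholds and thinning depths.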

Additional observations from a re-analysis of the deposited data

Results flagged for a closer look

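The 309 cells assigned to both hashtags or to neither entered no comparison of OVX with sham, yet 30 of them held 93 UMIs of the 7 genes, above the 3 counts that a count of 0 allows. Of these UMIs, 52 came from 1 MHC class II-high cell with 1008 UMIs in all, in which hashtag 1 had 83 and hashtag 2 had 267 UMIs. Cells without a call by condition are not a control, and which condition they came from cannot be told.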

How the results depend on the processing

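No paired analysis was possible because both conditions were 1 pool each in 1 library, with no replicate numbers. The summed OVX to sham ratio of 8.02 moved to 10.5 when a cell was given to the hashtag with at least 80% of its hashtag UMIs, to 4.57 without the cell with most UMIs and to 2.95 with equal weight per cell. It was 0.829 without the top 5 cells, 0.531 without all high cells and 1.05 without all cells of at least 5 UMIs, the last chosen after seeing the data. Cd74 was at 0.703, 0.4995 and 1.22 under these settings, H2-Aa at 0.691 without all high cells, H2-Ab1 at 0.452 and 0.642 under the last 2, and H2-Eb1 at 0.927 without the top 5. H2-DMa moved from 0.969 to 0.464 without the top 5, 0.437 without all high cells and 0.802 under the last. These cells were picked on the UMIs compared, so values under 1 after their removal are set in part by the choice and are not read as a reversal. The quality filter (8.27) and the doublet caller (8.01) removed none of the high cells and so could not test the ratio. The number of high cells was 9 to 15 under the other thresholds, with 7 to 9 in OVX and 1 to 6 in sham. The share of cells with a UMI was 10.01% in OVX and 8.87% in sham without thinning, and 1.51% in OVX and 1.53% in sham at 500 UMIs. Of the 10 genes with the largest folds, 6 were kept with equal weight, 5 at 20 UMIs and 5 when at least 3 of Cd74, H2-Aa, H2-Ab1 and H2-Eb1 were asked for, an alternative chosen after seeing the data. Of the 10 genes most like the summed genes, 4 were kept after thinning. The cluster with most UMIs held 92.6% of them by Leiden (140 cells, 10 of them high) and 92.3% with 1000 variable genes (121 cells, 10 of them high). The causes of these changes were not tested. The counts rest on 11 cells of 1 library, and nothing here measures the spread between mice.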
